A study of Mus musculus with 2 samples.

Results

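The 39 genes described here are serum response factor (Srf), a transcription factor, and genes of the actin cytoskeleton, many of them linked to it. They were taken by gene name from a count table of 54532 genes, and each name matched a single protein-coding row. RNA of pancreatic islets, the hormone-secreting cell clusters of the pancreas, had been sequenced from male C57BL/6 mice labelled as carrying a Brsk2 transgene for over-expression (the library named Line20) and from wild-type mice. Mice of both genotypes were 10 to 12 weeks old, and per the labels' growth protocol mice of 8 to 10 weeks drank doxycycline, the inducer of many switchable transgenes, in water for 4 days. Brsk2 encodes a protein kinase related to AMPK. The labels used here name neither the promoter of the transgene nor whether a library came from 1 mouse or from pooled animals. Each group had 1 library, so no spread between animals was measured, no test of groups could be made, no difference could be checked in replicates, and genotype and library cannot be told apart.

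Actin filaments are polymers of actin subunits that give a cell its shape, its adhesion to neighbours and matrix, and the cortical mesh beneath the plasma membrane through which secretory granules pass. SRF binds a short DNA element, the CArG box, in promoters of actin and actin-binding genes and in its own promoter. It works with cofactors of the MRTF family, which are held in the cytoplasm by free actin monomers and reach the nucleus when filaments form, and with the ternary complex factors (TCFs), which respond to MAP kinase signalling and drive immediate early genes. Smooth muscle and pericytes use tissue-restricted isoforms such as alpha smooth muscle actin, while other cells, islet cells among them, use cytoplasmic actins and the broadly expressed isoforms of actin-binding proteins.

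Reads assigned to genes numbered 16832312 for the transgenic and 20389499 for the wild-type islets. Levels are given as CPM, read counts brought to a common library size with edgeR's TMM factors, and, where genes are compared with each other, as RPKM, which is that CPM divided by the gene length in the deposited table in kilobases. Ratios divide the transgenic by the wild-type CPM, and the range in brackets is its exact 95% interval, which covers counting error only. A call of higher or lower needs a ratio beyond 1.5-fold whose interval leaves out 1. Brsk2 itself had 94.3 CPM in the transgenic library against 36.4 CPM in the wild-type library, a ratio of 2.59 [2.37, 2.83]. The hormone genes that define islets took 23.4% of the transgenic and 27.3% of the wild-type reads. Among them Ins1, Ins2 and Iapp had ratios below 1, and Gcg, Sst, Ppy and Pyy had ratios above 1. The ratio was 0.476 for Ins1 and 1.59 for Gcg. The 2 libraries also differed in cell markers. Of 29 acinar markers 28 were called higher and 1 lower, the list taking 6.89% of transgenic and 1.51% of wild-type reads. Of 12 beta cell markers 8 were called lower and 0 higher. Of 9 markers of alpha, delta and gamma cells, other hormone cells of islets, 4 were called higher and 0 lower. Over all genes with at least 10 reads, 7.78% were called higher and 5.89% lower. The part of these lists in the values below was not tested. In such bulk samples fewer cells of a type and less RNA per cell cannot be told apart.

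Of the actin cytoskeleton genes 10 were called lower in the transgenic library, and Srf had the lowest ratio. Of the 39 members, 38 had 10 or more reads in all; Cnn1, with 8 reads in all, did not. Among these 38, 10 were called lower, 1 higher and 27 neither, where 5.89% of all 17709 genes measured this way were called lower and 7.78% higher. Ratios were below 1 for 31 members and above 1 for 7, where 8740 of the 17709 genes were below 1, and the median log2 ratio was -0.38, beside 0.01 over all measured genes. Because most members are abundant, the same count was made among genes with at least 1000 reads: 9 of 30 members were called lower and 0 higher, where 4.70% of 5857 genes were lower and 2.56% higher. At that minimum 27 of the 30 members and 3549 of the 5857 genes had ratios below 1, with median log2 ratios of -0.43 and -0.06. The members took 0.571% of transgenic reads (exact interval 0.567 to 0.574) and 0.851% of wild-type reads (0.847 to 0.855).

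At a minimum of 100 reads 10 members were lower and 1 higher (5.66% and 5.67% of genes). At 2-fold 4 were lower and 0 higher (2.53% and 4.26%), and with the whole interval beyond 1.5-fold 9 and 0 (2.04% and 2.47%).

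**Figure D1:**
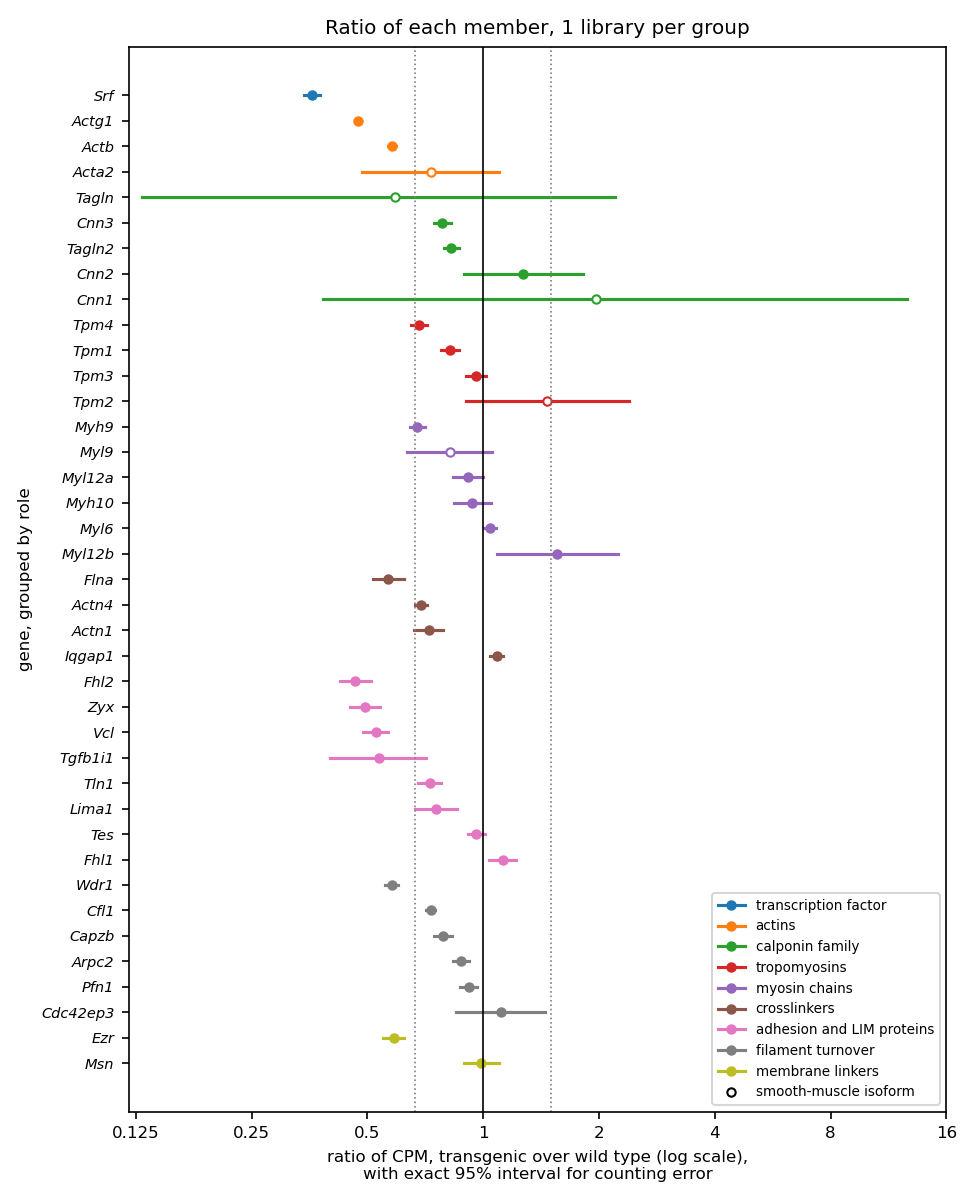
Ratio of CPM of each member, transgenic over wild type, on a log axis, with horizontal bars for the exact 95% interval of counting error; 1 library per group. Dotted lines mark 1.5-fold in each direction and open circles the smooth-muscle isoforms. Srf lies farthest to the left at 0.359, while the open circles carry wide bars that reach across 1.

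The upstream sequences that carry CArG boxes are shown first, because the members were gathered around SRF. RefSeq promoter windows on GRCm38.p6 (250 bases before to 50 after the start site) were found for 36 of the 39 members; Actb, Tagln and Tgfb1i1 had none in the table. An exact CArG box, searched by its consensus, which reads the same on both strands, was found in a window of 9 of these 36 genes (25%), where 1.81% of all 27025 genes with a window held one. Members had been picked as SRF-linked, so this share describes the list and is no independent result. The 250 bases before the start site follow for the 4 matched members that were called lower, 5′ to 3′ on the strand of the gene, with CArG boxes in capitals. Fhl2 had 2 windows with a box, and the one whose box lies nearer to its start site is given.
Srf (chr17:46556163-46556412, minus strand): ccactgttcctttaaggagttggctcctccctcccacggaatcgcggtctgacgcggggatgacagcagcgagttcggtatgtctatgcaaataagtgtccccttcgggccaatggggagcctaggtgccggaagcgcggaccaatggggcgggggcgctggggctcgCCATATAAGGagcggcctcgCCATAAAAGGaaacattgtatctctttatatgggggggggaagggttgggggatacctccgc
Actg1 (chr11:120348496-120348745, minus strand): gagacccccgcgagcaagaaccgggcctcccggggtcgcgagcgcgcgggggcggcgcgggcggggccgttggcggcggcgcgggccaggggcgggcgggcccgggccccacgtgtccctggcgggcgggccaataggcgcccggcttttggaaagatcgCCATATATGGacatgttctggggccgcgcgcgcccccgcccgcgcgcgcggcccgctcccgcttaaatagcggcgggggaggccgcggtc
Vcl (chr14:20929148-20929397, plus strand): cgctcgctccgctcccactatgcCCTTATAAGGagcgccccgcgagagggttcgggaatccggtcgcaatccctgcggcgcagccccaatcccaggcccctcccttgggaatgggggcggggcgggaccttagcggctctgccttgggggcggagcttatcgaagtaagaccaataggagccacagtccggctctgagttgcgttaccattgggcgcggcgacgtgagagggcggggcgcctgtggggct
Fhl2 (chr1:43163962-43164211, minus strand): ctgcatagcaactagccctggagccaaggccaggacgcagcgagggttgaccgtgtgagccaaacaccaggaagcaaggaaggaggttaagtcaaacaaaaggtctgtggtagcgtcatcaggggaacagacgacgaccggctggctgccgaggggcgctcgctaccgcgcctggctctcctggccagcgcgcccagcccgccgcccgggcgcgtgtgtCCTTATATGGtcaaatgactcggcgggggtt

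Srf carries a pair of boxes that begin 82 and 62 bases before its start site. The box of Actg1 begins at 90 bases, that of Vcl at 227 bases and the one shown for Fhl2 at 31 bases before the start; the box of the other Fhl2 window begins 96 bases before its own start. The other 5 members with a match were not called, and their boxes are given with 10 bases on each side.
Myl9 (box at chr2:156775303-156775312, plus strand): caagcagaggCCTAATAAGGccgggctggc
Cnn2 (box at chr10:79988544-79988553, plus strand): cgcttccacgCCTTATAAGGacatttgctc
Myl6 (box at chr10:128493050-128493059, minus strand): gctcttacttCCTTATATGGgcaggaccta
Lima1 (box at chr15:99820187-99820196, minus strand): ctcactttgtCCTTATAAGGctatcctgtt
Fhl1 (box at chrX:56779581-56779590, plus strand): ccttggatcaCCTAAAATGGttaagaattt

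Boxes thus stood before members with ratios from 0.359 for Srf to 1.27 for Cnn2. Of the measured members with a box, 4 of 9 were called lower, and of the 26 with a window but no box, 4 were lower and 1 higher. Over all measured genes, members included, 12.2% of 197 with a box were lower and 2.54% higher. Of 11828 with a window but no box, 5.06% were lower and 6.99% higher. The member counts are small, and members had been picked as SRF-linked, so they cannot tell whether a box has an effect, which was not tested. The median log2 ratio was -0.41 with a box and -0.32 without. A match in letters is a description of the window and not a bound site, and a window without a match says only that these letters are not in it.

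Srf was the member with the lowest ratio. It had 2130 reads in the transgenic library, or 125 CPM, against 6996 reads in the wild-type library, or 348 CPM. The ratio was 0.359 [0.342, 0.377]. The gene (ENSMUSG00000015605) spans chromosome 17 from 46548329 to 46556175 on the minus strand. Among 5857 genes with at least 1000 reads, Srf was the 11th from the lowest ratio, and among 341 such genes that the deposited table assigns to a transcription factor family it was the 3rd, after Fosb and Nr4a1. As a share of reads outside hormone and acinar genes, Srf took 0.0182% of the transgenic and 0.0482% of the wild-type library, a ratio of 0.377 [0.359, 0.395]. Srf also had the transcript richest in G and C among the members, at 64.4%, and after centring ratios by transcript GC content and length its ratio was 0.371.

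The cytoplasmic actins, the main actins of non-muscle cells, were both called lower, whereas alpha smooth muscle actin was scarce and not called. Actg1, gamma actin (ENSMUSG00000062825, chromosome 11, 120345690 to 120348542, minus strand), had 19276 reads in the transgenic and 48137 in the wild-type library, with a ratio of 0.472 [0.464, 0.480]. Actb, beta actin (ENSMUSG00000029580, chromosome 5, 142903115 to 142906754, minus strand), had 9944 reads in the transgenic and 20287 in the wild-type library, with a ratio of 0.578 [0.564, 0.592]. Per length, gamma actin stood above beta actin in both libraries, at 425 against 218 RPKM in the transgenic and 900 against 376 RPKM in the wild-type library. The ratios were not equal: Actg1 held 66.0% of the reads of both genes in the transgenic library (exact interval 65.4 to 66.5) and 70.4% in the wild-type library (70.0 to 70.7). Their coding sequences are identical at 88.7% of 1128 bases, with a longest shared run of 62 bases, so counting may have split shared reads between the genes, and both values are uncertain to that extent. Together they took 0.174% of transgenic and 0.336% of wild-type reads.

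**Figure D2:**
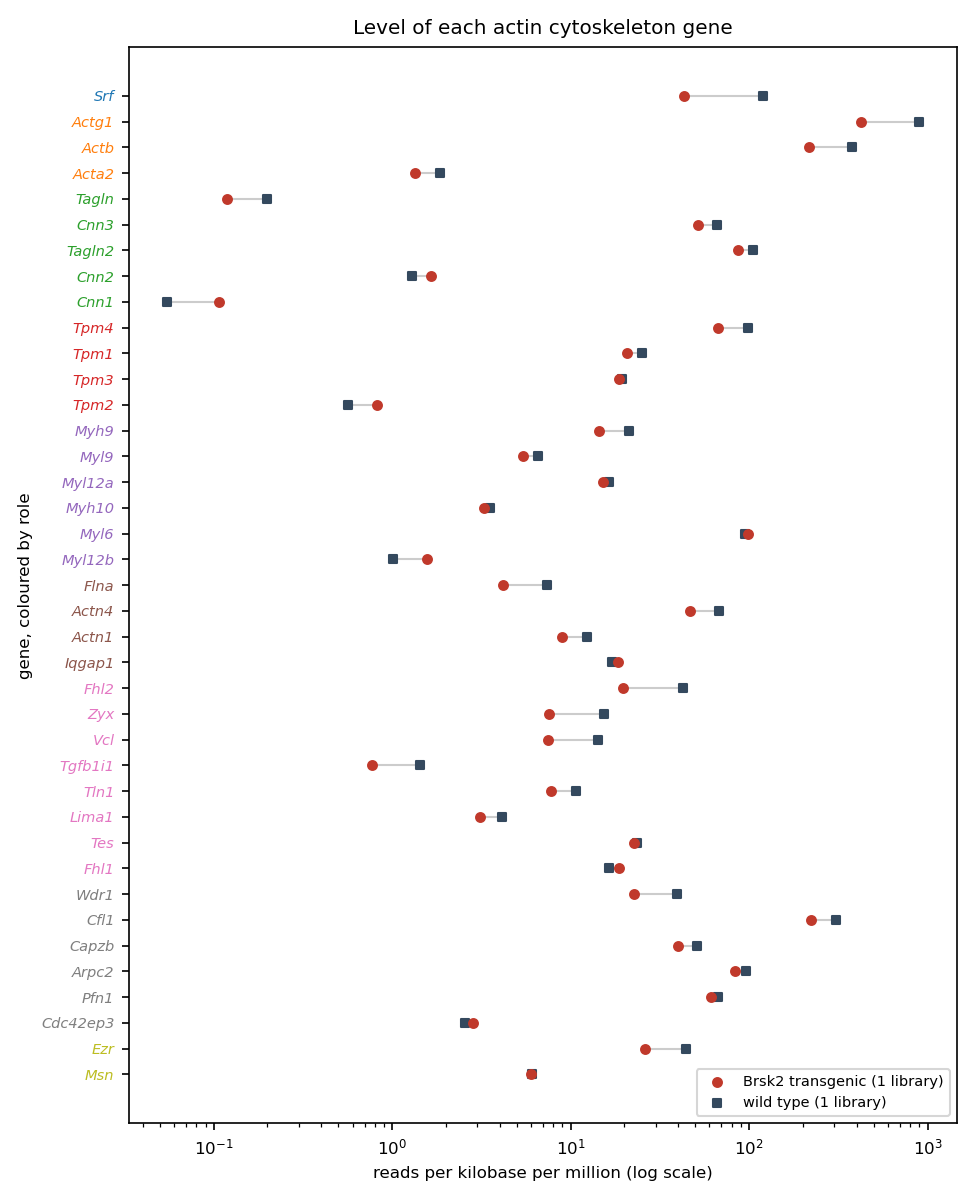
Level of each member in RPKM on a log axis, with the transgenic library as red circles and the wild-type library as dark squares; names are coloured by role and there is 1 library per group. Actg1 is the member with the highest level in both libraries, at 425 and 900 RPKM, and the smooth-muscle isoforms Acta2, Tagln, Cnn1 and Tpm2 lie below 2 RPKM.

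Acta2, alpha smooth muscle actin, had 41 reads in the transgenic library and 66 in the wild-type library, with a ratio of 0.733 [0.484, 1.10]. Its level was 1.35 RPKM in the transgenic and 1.84 RPKM in the wild-type library. The interval held 1, so at this depth a difference was not detectable. The coding sequence of Acta2 is identical to Actb at 83.0% and to Actg1 at 81.6% of 1128 bases. The longest shared runs are 47 and 56 bases. A small fraction of shared reads from these abundant genes could thus alter the value of Acta2, which is therefore uncertain.

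Of the calponin-like proteins, which bind along actin filaments, Tagln2 and Cnn3 were abundant, the broad isoform Cnn2 was as scarce as Acta2, and the muscle isoforms were near-absent. Tagln2, the broadly expressed transgelin, had 3074 reads in the transgenic and 4384 in the wild-type library, with a ratio of 0.827 [0.790, 0.866]. Cnn3, acidic calponin, had 2667 transgenic and 4015 wild-type reads, with a ratio of 0.784 [0.746, 0.823]. Neither passed 1.5-fold, although both intervals lay below 1. Cnn2 had 69 transgenic and 64 wild-type reads, or 1.64 and 1.29 RPKM, and a ratio of 1.27 [0.892, 1.82]. The smooth muscle forms had few reads: Tagln 4 in the transgenic and 8 in the wild-type library, and Cnn1 5 and 3. Their intervals, 0.130 to 2.20 for Tagln and 0.382 to 12.7 for Cnn1, allow a difference in either direction. Tagln also overlaps Pcsk7 on the opposite strand, which had 380 transgenic and 581 wild-type reads, and the labels used here do not say whether counting used strand.

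The tropomyosins, coiled-coil proteins that lie along the filament and set which other proteins reach it, showed no call of higher or lower. Tpm4, a cytoskeletal form, had 2529 transgenic and 4375 wild-type reads and the lowest ratio of the family, 0.682 [0.649, 0.716], just short of 1.5-fold. After GC and length centring its ratio was 0.663 and it was called lower. Tpm1 had a ratio of 0.818 [0.775, 0.863] and Tpm3 a ratio of 0.960 [0.904, 1.02]. Tpm2, the form typical of smooth muscle, had 41 transgenic and 33 wild-type reads and a ratio of 1.47 [0.904, 2.39]. Of the family's reads Tpm4 held 37.2% in the transgenic (36.1 to 38.4) and 43.4% in the wild-type library (42.4 to 44.3). Tpm3 held 28.6% (27.5 to 29.6) and 23.6% (22.8 to 24.5). The intervals of these shares cover counting error only.

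Nonmuscle myosin, the motor that pulls on actin filaments, had ratios nearer to 1 in most of its chains, and none was called lower. Myh9, the heavy chain of nonmuscle myosin IIA, had 3174 transgenic and 5553 wild-type reads, with a ratio of 0.674 [0.645, 0.704] just short of the rule. Myh10, the IIB heavy chain, had 587 transgenic and 739 wild-type reads and a ratio of 0.937 [0.839, 1.05]. Myh9 held 84.4% of the reads of the pair in the transgenic (83.2 to 85.5) and 88.3% in the wild-type library (87.4 to 89.0). These intervals cover counting error only, and the spread of this share between animals was not measured. The essential light chain Myl6 was at 1.04 [1.00, 1.08] with 98.6 RPKM in the transgenic and 94.8 RPKM in the wild-type library. Among the regulatory light chains, Myl12a was at 0.915 and the smooth muscle form Myl9 at 0.820 [0.634, 1.06].

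Myl12b was the only member called higher, on 74 transgenic and 56 wild-type reads, with a ratio of 1.56 [1.09, 2.25]. It neighbours Myl12a on chromosome 17, and the coding sequences of the pair are identical at 96.5% of 519 bases, with a longest shared run of 105 bases. Myl12a had 865 transgenic and 1115 wild-type reads, so a small change in how shared reads were assigned could alter the value of Myl12b, which is therefore uncertain.

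Side by side, the broadly expressed isoforms held far more reads than the smooth-muscle isoforms, and most of the difference in their summed level came from Actb and Actg1. Summed over Actb, Actg1, Tagln2, Cnn2, Cnn3, Tpm3, Tpm4, Myl6, Myl12a and Myl12b, the level was 984 RPKM in the transgenic and 1679 RPKM in the wild-type library, a ratio of 0.586. Without Actb and Actg1 it was 341 RPKM in the transgenic and 402 RPKM in the wild-type library, a ratio of 0.848. The 5 smooth-muscle isoforms Acta2, Tagln, Cnn1, Tpm2 and Myl9 together reached 7.80 RPKM in the transgenic and 9.25 RPKM in the wild-type library, from 198 and 264 reads, a ratio of 0.843. Myl9, with 107 transgenic and 154 wild-type reads, had the most reads of these and a ratio short of 1.5-fold; the other 4 had fewer reads and wide intervals. By gene rather than by sum, the median log2 ratio was -0.20 over the 10 broad isoforms and -0.37 over the 4 measured smooth-muscle isoforms. At a minimum of 1 read, which adds Cnn1, the latter median was -0.29. The 4 had few reads and intervals that all held 1, so the medians cannot tell whether the classes differ. Of the broad class 2 were called lower, Actb and Actg1, and 1 higher, and of the smooth-muscle class 0 in either direction. Over all measured genes 5.89% were called lower and 7.78% higher. With so few reads a call needs a larger difference, so the 0 is no trait of the smooth-muscle class.

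**Figure D3:**
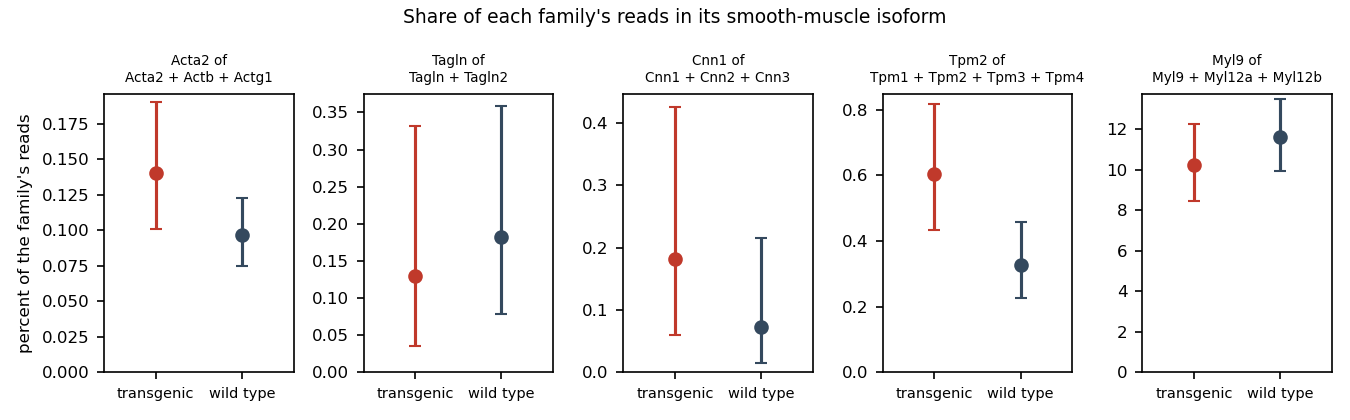
Percent of the reads of each isoform family that came from its smooth-muscle member (not divided by gene length), for the transgenic (left) and wild-type (right) library of each panel, with exact 95% intervals for counting error. The bars of Tpm2 stand at 0.603% (0.433 to 0.817) and 0.327% (0.225 to 0.459), and those of Myl9 at 10.2% and 11.6%.

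Within each family the share of reads from the smooth-muscle member, which no library scaling affects, was under 1% in both libraries for 4 of the families and larger for Myl9. Acta2 held 0.140% of actin reads in the transgenic (0.101 to 0.190) and 0.0964% in the wild-type library (0.0745 to 0.123). Reads shared with Actb and Actg1 make this share uncertain. Myl9 held the most, 10.2% of its family's reads in the transgenic (8.46 to 12.2) and 11.6% in the wild-type library (9.95 to 13.5). Divided by gene length, its share was 24.5% in the transgenic and 27.3% in the wild-type library. The coding sequence of Myl9 is identical to Myl12a at 85.5% and to Myl12b at 86.3% of 519 bases. Its share is likewise uncertain where reads are shared. Tagln held 0.130% and 0.182% and Cnn1 0.182% and 0.0735% of their families' reads in the transgenic and wild-type libraries. The share of Tpm2 was higher in the transgenic library, at 0.603% (0.433 to 0.817) against 0.327% (0.225 to 0.459) in the wild-type library, with an odds ratio of 1.85 and an exact conditional interval of 1.14 to 3.02. In the other 4 families that interval held 1, for example 0.960 to 2.18 for Acta2 and 0.661 to 1.13 for Myl9, so no difference was detectable at this depth. The other defining genes of smooth muscle and pericytes differed little in sum: of 17 markers 14 were measured, 1 was called lower (Cspg4) and 0 higher, and their summed level was 139 CPM in the transgenic and 138 CPM in the wild-type library. The pericyte marker Rgs5 made up much of that sum, at 68.8 CPM in the transgenic and 66.1 CPM in the wild-type library, followed by Mcam at 28.4 and 29.2 CPM. Myh11, the smooth muscle myosin heavy chain, had 86 transgenic and 113 wild-type reads, and Actg2, enteric smooth muscle actin, 0 and 1 read. Fibroblast and stellate cell markers, by contrast, were called higher in 10 of 14 cases, at 215 CPM in the transgenic and 136 CPM in the wild-type library. The counts of both lists stand against 7.78% of all measured genes called higher and 5.89% called lower. The part of these markers in the values of the members was not tested.

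Among the proteins that link actin filaments to each other, filamin was called lower. Flna, filamin A, a crosslinker that builds loose networks, had 670 reads in the transgenic and 1395 in the wild-type library, with a ratio of 0.567 [0.516, 0.622]. The alpha-actinins, which bundle filaments, did not pass the rule: Actn4 was at 0.689 [0.665, 0.714] from 4889 transgenic and 8364 wild-type reads, and Actn1 at 0.722 [0.662, 0.787]. Iqgap1, a scaffold that binds actin, was slightly above 1, at 1.08 [1.04, 1.13] from 5211 transgenic and 5667 wild-type reads.

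Of the adhesion and LIM-domain proteins, 4 of 8 were called lower, where 5.89% of all measured genes were called lower. This role also has the most genes of any role here, and of the actins 2 of 3 were called lower. Fhl2, a LIM-only coactivator of transcription, had 639 transgenic and 1620 wild-type reads and a ratio of 0.465 [0.424, 0.510]. Zyx, zyxin, a LIM protein that gathers at strained filaments and focal adhesions, had 698 transgenic and 1674 wild-type reads and a ratio of 0.492 [0.450, 0.538]. Vcl, vinculin, which ties talin at adhesions to actin, had 1045 transgenic and 2346 wild-type reads and a ratio of 0.525 [0.488, 0.565]. Tgfb1i1, also called Hic-5, a LIM adaptor related to paxillin, had 73 transgenic and 161 wild-type reads and a ratio of 0.535 [0.400, 0.709]. Zyxin, vinculin and Hic-5 are all found at focal adhesions, where stress fibres meet the membrane.

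The remaining adhesion members were closer to 1. Tln1, talin, which connects integrins to vinculin and actin, was at 0.726 [0.677, 0.778], and Lima1, which crosslinks filaments and slows their turnover, at 0.755 [0.665, 0.856]. Tes, testin, was at 0.960 [0.912, 1.01] from 2651 transgenic and 3257 wild-type reads. Fhl1 was at 1.13 [1.04, 1.22], so the related LIM-only genes Fhl1 and Fhl2 lay on opposite sides of 1. Without strand in the counting, reads of Vcl cannot be told apart from those of Ap3m1 where the genes overlap, nor those of Tln1 from Creb3. Ap3m1 had 1101 transgenic and 1394 wild-type reads and Creb3 1749 and 2943.

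Of 6 genes of filament turnover 5 had ratios below 1, and 1 was called lower, where 5.89% of all measured genes were called lower. Wdr1, which works with cofilin to take filaments apart, had 3449 transgenic and 7044 wild-type reads and a ratio of 0.578 [0.554, 0.602]. Cfl1, cofilin, the severing protein itself, had 8948 transgenic and 14458 wild-type reads and a ratio of 0.730 [0.711, 0.750]. Capzb, a subunit of the capping protein of filament ends, was at 0.787, Arpc2, a subunit of the branching Arp2/3 complex, at 0.873, and Pfn1, profilin, which feeds monomers to growing ends, at 0.916. Cdc42ep3, an effector of the GTPase Cdc42, had 112 transgenic and 119 wild-type reads and a ratio of 1.11 [0.850, 1.45]. Per length, cofilin was the most abundant of the 6, at 223 RPKM in the transgenic and 305 RPKM in the wild-type library.

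The 2 membrane linkers, which anchor actin to the plasma membrane, differed from each other. Ezr, ezrin, typical of epithelia, had 1456 transgenic and 2931 wild-type reads and a ratio of 0.586 [0.550, 0.624]. Msn, moesin, typical of endothelium and leukocytes, had 647 transgenic and 772 wild-type reads and a ratio of 0.989 [0.889, 1.10]. Endothelial markers had 336 CPM in the transgenic and 379 CPM in the wild-type library, with 0 of 14 called, and macrophage and dendritic markers 186 and 172 CPM, with 1 of 13 measured called higher. Ductal markers, of another epithelium, had 2830 CPM in the transgenic and 4468 CPM in the wild-type library. The difference in that sum came from the keratins Krt8, at 1367 and 2771 CPM, and Krt18, at 625 and 877 CPM. Of the 13 ductal markers 7 had ratios above 1 and 6 below 1, with a median log2 ratio of 0.01. Of them 3 were called higher and 2 lower. The counts of these lists stand against 7.78% of all measured genes called higher and 5.89% called lower. The part of these lists in the values of Ezr and Msn was not tested.

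**Figure D4:**
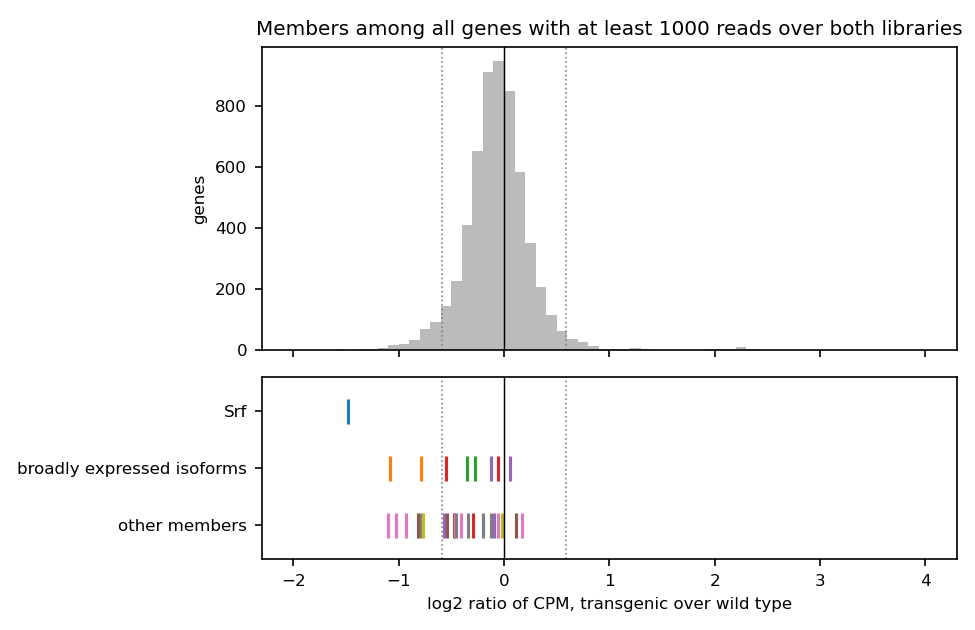
Distribution of the log2 ratio of CPM, transgenic over wild type, for the 5857 genes at or above 1000 reads in all (upper panel, number of genes per bin), and the 30 members that passed the same minimum as ticks coloured by role (lower panel). Dotted lines mark 1.5-fold; Srf lies at -1.48 and 9 of the 30 ticks lie left of the line, none right of it.

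The members were also set against totals without the reads of hormone and acinar genes. Their share was then 0.819% in the transgenic and 1.20% in the wild-type library. On that footing the ratio was 0.495 [0.487, 0.504] for Actg1, 0.606 [0.592, 0.621] for Actb, 0.516 for Zyx, 0.551 for Vcl and 0.488 for Fhl2. This change of totals multiplies the ratio of every member by the same factor, so it is no check on single genes. Only the reads of the listed genes were left out, and the part of hormone and acinar cells in the members' reads was not tested.

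The other genes of the pathway did not all follow the members. The counts of each list below stand against 5.89% of all measured genes called lower and 7.78% called higher. Of 14 genes of the TCF arm of SRF, most of them immediate early genes, 10 were called lower and 0 higher, with a median log2 ratio of -0.92. Arc had 375 transgenic and 1396 wild-type reads and a ratio of 0.317 [0.282, 0.355], Fosb, an AP-1 subunit, a ratio of 0.344 [0.329, 0.359], and the nuclear receptor Nr4a1 a ratio of 0.349 [0.320, 0.380]. That immediate early genes were lower was known from earlier results of these libraries, so this count repeats them and adds no support. Of 22 genes of the MRTF arm outside the members, 2 were called lower and 0 higher, with ratios below 1 for 11 and above 1 for 11 and a median of -0.01. The lower ones were Fermt2, kindlin-2, an integrin activator, at 0.589 [0.552, 0.628], and Pdlim7 at 0.596 [0.553, 0.642]; Akap12, a scaffold of protein kinase A, was at 0.680 [0.571, 0.808], short of the rule. Dstn, destrin, with the most wild-type reads in the list, had 10008 transgenic and 16860 wild-type reads and a ratio of 0.700 [0.683, 0.718].

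**Figure D5:**
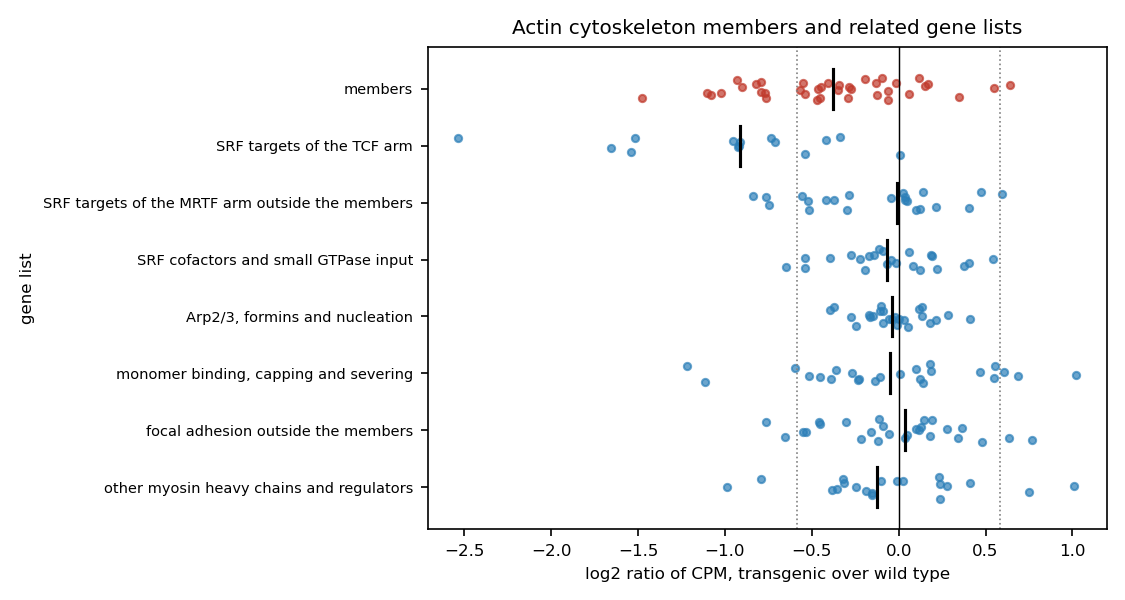
Log2 ratio of CPM, transgenic over wild type, of each measured gene (points, with random vertical scatter) in the members and 7 related gene lists, with the median of each list as a black bar and 1.5-fold as dotted lines; some genes stand in several lists. The medians are -0.38 for the members and -0.92 for the TCF arm, and between -0.13 and 0.04 for the other 6 lists.

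Transcripts of the SRF cofactors and of the small GTPases that act through actin on the MRTFs were close to even. Of 23 measured genes 1 was called lower and 0 higher, with a median log2 ratio of -0.07. The lower one was Elk3, a ternary complex factor, with 304 transgenic and 563 wild-type reads and a ratio of 0.637 [0.552, 0.734]. The kinase Limk2, which phosphorylates cofilin, was at 1.46 [1.33, 1.59] and the GTPase Rhob at 0.687 [0.642, 0.735], both short of the rule. Cdc42, with the most wild-type reads in the list, was at 1.04 [1.00, 1.08].

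Of 25 genes of the Arp2/3 complex, the formins and their activators, 0 were called in either direction, with a median log2 ratio of -0.04. The largest differences among those with at least 100 reads were 0.759 [0.685, 0.842] for the Arp2/3 subunit Arpc4, 0.774 [0.725, 0.826] for the formin Daam1 and 1.22 [1.13, 1.31] for Brk1, a subunit of the WAVE complex that activates Arp2/3. Actr3, an actin-related core subunit of Arp2/3 and the gene with the most wild-type reads in the list, had 3390 transgenic and 4841 wild-type reads and a ratio of 0.826 [0.790, 0.863].

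Among 24 genes of monomer binding, capping and severing, 3 were called higher and 2 lower, beside 7.78% and 5.89% of all measured genes. Vil1, villin, which bundles and severs filaments in brush borders, had 1800 transgenic and 4600 wild-type reads and a ratio of 0.462 [0.437, 0.488], and Cfl2, muscle cofilin, was the other lower one at 0.660 [0.613, 0.711]. The higher ones had few reads: Scin, scinderin, 74 and 43, Avil, advillin, 67 and 49, and the capping protein Capg 71 and 55 in the transgenic and wild-type libraries. The ratio of Scin was 2.03 [1.38, 3.03].

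Of 27 focal adhesion genes outside the members, 1 was called higher and 2 lower, with a median log2 ratio of 0.04. Over all measured genes 7.78% were called higher and 5.89% lower. Besides Fermt2, the integrin subunit Itgav was lower, with 1663 transgenic and 3088 wild-type reads and a ratio of 0.635 [0.598, 0.674]. Tln2, the paralog of talin, was higher at 1.55 [1.34, 1.81], on the other side of 1 from Tln1. Itgb1, with the most wild-type reads, was at 1.03 [0.984, 1.07].

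Of 20 other myosin genes and regulators, 2 were called higher and 2 lower, beside 7.78% and 5.89% of all measured genes. Myo1e, a class I myosin, a kind that tethers actin to membranes, had 1032 transgenic and 2414 wild-type reads and a ratio of 0.504 [0.468, 0.543]. Myo1c, of the same class, was at 0.765, short of the rule. Also called were Mylk, myosin light chain kinase, higher on 46 transgenic and 27 wild-type reads, and Myl7, lower on 23 and 47. Ppp1cb, the catalytic subunit of myosin phosphatase, with the most wild-type reads in the list, was at 1.02 [0.982, 1.05].

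The authors' deposited table of 108 genes listed as different held 0 of the 39 members. These 108 genes are few beside the 17709 genes with at least 10 reads. A set of 39 genes could miss them by its small size alone, so the 0 says nothing about the members either way. From the pathway lists the authors' table held Egr4 and Arc, both of the TCF arm.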

How the data were processed

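Total RNA of frozen islets was extracted with Trizol and made into libraries with a TruSeq kit, per the labels' protocols. The authors deposited raw read counts per gene with gene lengths, and a table of listed genes with normalized counts (a signal scale), log2 fold changes and p-values. DESeq2 1.10.1 is named in the submitters' processing notes. The sources used here do not name the aligner, the counting program, strand use or the build. Start and end of 38 of the 39 members equalled GENCODE M21 on GRCm38, so coordinates were treated as GRCm38.

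Counts were scaled with TMM (edgeR 4.0.16, R 4.3.3; factors 1.01 for the transgenic and 0.987 for the wild-type library). A read was worth 0.0586 CPM in the transgenic and 0.0497 CPM in the wild-type library. Ratios and shares had exact 95% Clopper-Pearson intervals (SciPy 1.17.1); without molecular identifiers reads may repeat a molecule, so these cover counting error only. With 1 library per group no test between groups was made. The steps were tested on simulated counts. Named genes were all members and, in each pathway list, the 3 with the largest absolute log2 ratio among those with at least 100 reads and the one with the most wild-type reads; other genes were named where a count was small or, for Actg2, Rgs5 and Mcam, after their values were seen, and 1 gene that the rule names is not reported here. The members and lists were chosen with earlier results of these data known. Alternatives were DESeq2 1.42.0 size factors, library totals, TMM without hormone, acinar and immunoglobulin genes, other read minimums and fold rules, centring in 10 bins each of GC content and length of the longest transcript, and other denominators of shares. The CArG search, the minimum of 1000 reads, the sum without Actb and Actg1 and the odds ratios of shares were added after seeing the data. Coding sequences were compared from the stop codon backwards without gaps, using the longest open reading frame of GENCODE transcripts. Figures were drawn with matplotlib 3.10.9.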

Additional observations from a re-analysis of the deposited data

How the results depend on the processing

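Under DESeq2 size factors, library totals, and TMM without hormone, acinar and immunoglobulin genes, the same 10 members were called lower and Myl12b higher; with GC and length centring Tpm4 joined, giving 11 lower. The median log2 ratio of the members ran from -0.43 with at least 1000 reads, a minimum chosen after seeing the data (-0.06 over all genes), to -0.34 with library totals, where the median over all genes was 0.04. Counts moved with the rule by construction: at 2-fold 4 members were lower and 0 higher (2.53% and 4.26% of all genes), and with the whole interval beyond 1.5-fold 9 were lower and 0 higher (2.04% and 2.47%). With at least 1000 reads 0 were higher, since Myl12b has fewer. The members' share of reads in the transgenic and wild-type libraries was 0.582% and 0.865% when only protein-coding reads were counted, and 0.819% and 1.20% of reads outside hormone and acinar genes, because the denominators are smaller. Dividing reads by gene length put the family share of Acta2 at 0.210% and 0.144% and that of Myl9 at 24.5% and 27.3%, since these genes are shorter than their relatives. No paired analysis was possible because each group had 1 library, and for the same reason no library could be left out. Low reads limit the smooth-muscle isoforms: Acta2 had 41 transgenic and 66 wild-type reads.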

Other observations

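The CArG search was also run on the promoter windows of genes outside the members. Among those with 1000 reads or more, 8 of 79 with a box were lower and 1 was higher, against 195 and 110 of 4536 without. This makes 10.1% lower with a box and 4.30% without, with median log2 ratios of -0.15 and -0.06. The 8 were the actin genes Vil1 and Myo1e, the adhesion gene Fermt2, the MAP kinase phosphatase Dusp5, the AMPK subunit Prkab2, the stress gene Herpud1, and Myadm and Lurap1l. Prkab2 had 947 transgenic and 2387 wild-type reads and a ratio of 0.468 [0.434, 0.505], and Myadm a ratio of 0.567 [0.532, 0.604]. The gene called higher was the endocrine transcription factor Nkx2-2, with 2309 transgenic and 1813 wild-type reads. This is a count in 2 libraries, with genes named after their values were seen, and a box in a window does not show that SRF binds there.

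Across the 36 members with at least 100 reads, the log2 ratio and the GC content of the transcript had a Pearson's r of -0.37 (across genes, which share libraries and are not independent replicates), beside -0.12 over 12059 genes of at least the same reads. Srf is both the GC-richest of the members and the one with the lowest ratio. It may thus weigh heavily in the members' r, which was not computed without it.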
